A study of Xenopus laevis with 36 samples.

Results

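The comparison described here sets wounds treated with rCSF1 against wounds treated with rIL34 at 14 days post wounding (dpw). It takes in 12 of the 36 RNA-seq libraries of the series, 6 per cytokine, chosen by their treatment and day labels alone, and every gene that passed the filter on low counts. CSF1 (colony-stimulating factor-1) and IL34 (interleukin-34) are secreted growth factors that both bind CSF1R, the receptor on which the survival and differentiation of most macrophages depend. In mammals CSF1 is made by many cell types, whereas IL34 is best known from keratinocytes and neurons, where it maintains Langerhans cells and microglia. The question put by the comparison is what each factor does to a healing skin wound once the early inflammatory phase has passed.

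All animals were wild-type juvenile X. laevis. A biopsy punch removed epidermis and dermis of the dorsal skin and left the muscle beneath in place, and at 3 dpw each frog received a subcutaneous injection near the wound. The rCSF1 group received 1 µg of tagged recombinant X. laevis CSF1 made in Sf9 insect cells, and the rIL34 group received 1 µg of IL34 made the same way. The rctrl group, used here only for orientation, received an equal volume of a preparation from Sf9 cells that carried the empty vector. All 3 groups were sampled as skin at 7 and 14 dpw, with 6 libraries per group and time. The proteins were injected once and their persistence to 14 dpw was not measured in these libraries, and the labels tie no library to an animal, so p-values measure the spread between these libraries.

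Each of the 36 libraries held 22435798 to 34868292 counted read pairs, and the 12 libraries compared held 25205710 to 33188690. Levels below are CPM, read pairs scaled to a common library size by TMM, given as the lowest, median and highest of 6 libraries. Each fold change is the log2 of rCSF1 over rIL34 ± an approximate standard error. That error was derived from the edgeR quasi-likelihood test, as the absolute log2 fold change divided by the square root of the F statistic. A gene is said to be higher or lower where its p, adjusted by Benjamini-Hochberg over the 28225 genes tested, was under 0.05. The suffixes L and S name the copies of a gene on the long and short subgenomes of this tetraploid frog, which can share reads. Positions are those of the RefSeq annotation of Xenopus_laevis_v10.1. The tissue label was set against a list of 50 epidermal marker genes, which summed to 8298 to 15266 CPM in rCSF1-treated wounds and 10483 to 14315 CPM in rIL34-treated wounds.

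Before any gene is taken up, 3 of the 6 rCSF1 libraries have to be set apart. Skeletal muscle markers took 4.42% of the counts in rCSF1 replicate 6, 0.663% in replicate 2 and 0.447% in replicate 1, and 0.0370 to 0.0498% in the other 3 rCSF1 libraries. In rIL34-treated wounds the share was 0.125% in replicate 1 and 0.0234 to 0.0426% in the other 5, and in rctrl wounds it was 0.0219 to 0.0338%. The mean shares, 0.943 ± 1.72% in rCSF1-treated and 0.0485 ± 0.0383% in rIL34-treated wounds (SD, n = 6 each), did not differ past the threshold (exact two-sided permutation, p = 0.069, adjusted p = 0.092 over the 4 quantities tested so). Muscle transcripts were thus abundant in 3 rCSF1 libraries and not in the other 3, and the main gene groups below are also given without rCSF1 replicates 1, 2 and 6. In bulk tissue, a larger number of cells of a type and more RNA per cell cannot be told apart.

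**Figure D1:**
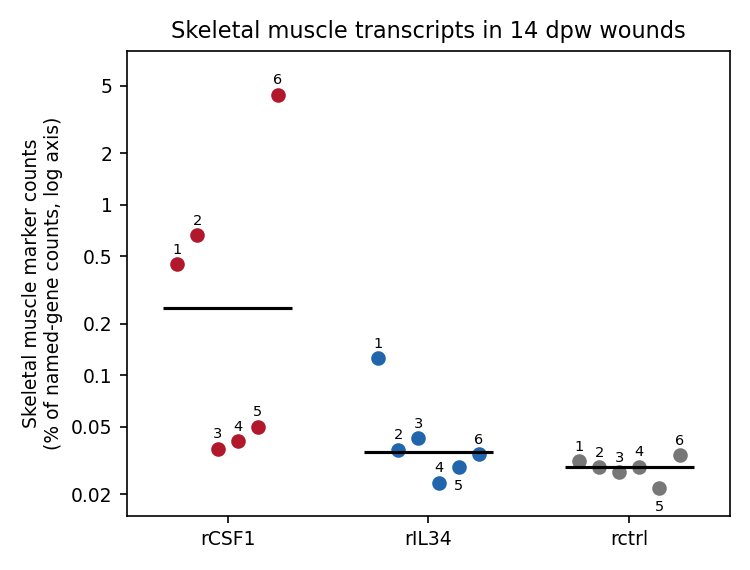
Share of counts held by skeletal muscle markers in each 14 dpw library, in percent on a log axis, for rCSF1, rIL34 and rctrl wounds. Points are libraries with their replicate numbers, bars are medians. Replicates 1, 2 and 6 of rCSF1, at 0.447 to 4.42%, lie above every other library, and the remaining rCSF1 libraries lie among the rIL34 ones.

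At 14 dpw, 349 genes (1.24%) were called between rCSF1-treated and rIL34-treated wounds. Of these, 306 (1.08% of those tested) stood higher after rCSF1 and 43 (0.152%) stood lower. The median log2 fold change over all tested genes was -0.01. The genes fell into kinds that behaved differently. Of the higher genes, 153 had a log2 fold change over 2, and in only 2 of these did every rCSF1 library lie above every rIL34 library. Their median was 3.56 with all libraries and 0.08 without rCSF1 replicates 1, 2 and 6. A further 126 higher genes had a log2 fold change under 1.5, and in 66 of them the groups did not overlap. Their median was 0.74 with all libraries and 0.66 without those 3, where all 126 kept their sign and 120 stayed at an unadjusted p under 0.05, as did 3.83% of all genes upward and 2.44% downward. The 43 lower genes had a median of -0.54 with all libraries and -0.43 without those 3, all kept their sign, and in 27 the groups did not overlap. Over all tested genes, the groups did not overlap in 0.96% with rCSF1 above and 0.95% with rCSF1 below. The called genes were chosen by a fit that holds these same libraries. Their counts without overlap, and without the 3 libraries, are therefore a description and no separate test. The 3 libraries were themselves chosen by their muscle share after the counts were seen. For muscle genes, a fall without them was largely fixed by that choice.

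**Figure D2:**
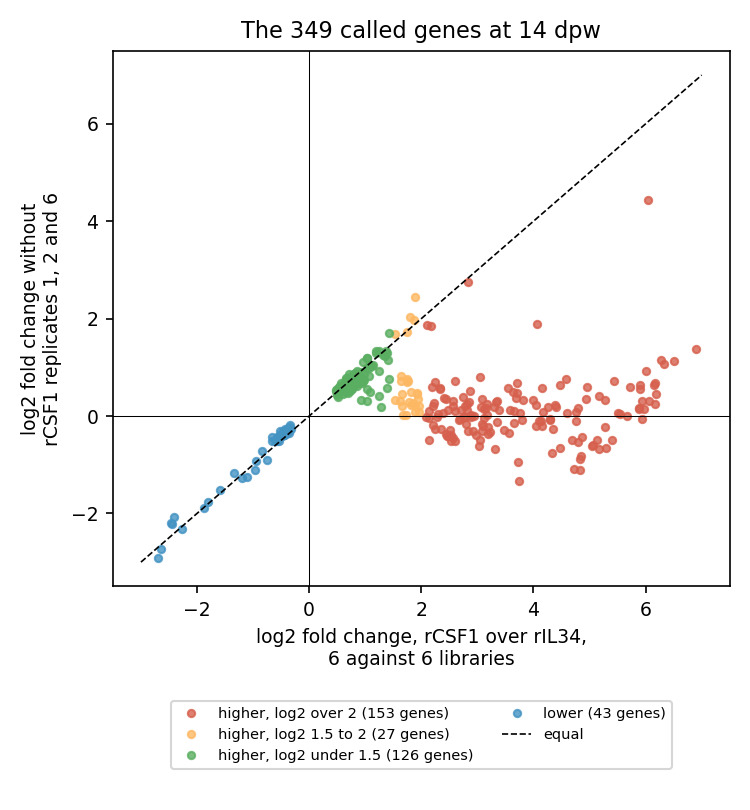
Log2 fold change of the 349 called genes at 14 dpw, rCSF1 over rIL34, with 6 against 6 libraries (x axis) and without rCSF1 replicates 1, 2 and 6 (y axis). Each point is a gene, coloured by the size and direction of its change. The 153 genes over 2 fall to a median of 0.08 on the y axis. The 126 higher genes under 1.5 have a median of 0.66 there and the 43 lower genes -0.43. Some of the 126 lie well below the dashed line of equal values, such as ldha.S (1.28 to 0.18).

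The number of calls depended on how the spread was estimated and on single libraries. With rCSF1 replicates 1, 2 and 6 left out, or with the muscle share as a covariate, no gene was called by edgeR (1769 and 2694 genes at an unadjusted p under 0.05), and a fit to the 12 libraries alone called 2 (5237 at an unadjusted p under 0.05). Leaving out rCSF1 replicate 6 alone gave 44 calls and replicate 1 gave 232, and leaving out rIL34 replicates 2, 5 and 6, each in turn, gave 159, 127 and 156. DESeq2 on the 36 libraries gave 768 calls (2.72%) with 346 of the 349 among them, and edgeR on the 18 libraries of 14 dpw gave 677 with 250 of the 349 among them.

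For 51 of the genes named below as higher or lower, the call was followed with each of the 12 libraries left out in turn. It was not followed for pygb.S, eif3c.L, pabpc1.L, atp6v0c.L, atp6v1e1.L, ipo7.L, nup133.L, nup205.S, hspa1a.S and hsp90ab1.S. Of the 51, 7 stayed called throughout. These were eprs1.L, gba.L, ctsc.S, pabpc1.S, eif3c.S, nnt.L and myh6.S. Another 9 lost the call with only 1 library out. For acta1.L, neb.S, pfkm.L, man2b1.L, hadha.L, gsn.L and eif4ebp2.S that library was rCSF1 replicate 6, for fos.S it was rIL34 replicate 1, and for slurp1l.S it was rIL34 replicate 6. The other 35 lost it with 2 or more, and 9 of the 51 stayed called without rCSF1 replicate 6.

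The largest fold changes belonged to genes of the muscle contractile machinery. Of 42 tested skeletal muscle markers, 26 were higher in rCSF1-treated wounds and none was lower, with a median log2 fold change of 4.50. Without rCSF1 replicates 1, 2 and 6 the median was -0.08. Those 3 libraries were set apart by the counts of these same markers, so this fall follows largely from that choice and is no test. myh6.S (1S:129970756-129992041), a myosin heavy chain gene, had 0.522, 5.08 and 166 CPM in rCSF1-treated wounds, against 0, 0.246 and 0.656 CPM in rIL34-treated wounds (6.90 ± 1.16, adjusted p = 0.0034). acta1.L, which encodes skeletal alpha-actin, had 0.891, 16.5 and 286 CPM in rCSF1-treated wounds and 0.0321, 0.265 and 3.64 CPM in rIL34-treated wounds (5.94 ± 1.19, adjusted p = 0.0089). In both it was rCSF1 replicate 6 that stood highest, with replicates 1 and 2 next, while the other 3 rCSF1 libraries stayed close to the rIL34 range. neb.S encodes nebulin, the ruler of the thin filament, and reached 16.3, 184 and 4025 CPM in rCSF1-treated against 2.83, 4.30 and 57.6 CPM in rIL34-treated wounds (5.89 ± 1.15, adjusted p = 0.0076). ckm.L, the muscle creatine kinase, changed by 4.84 ± 1.16 (adjusted p = 0.027), which became -0.81 without the 3 libraries.

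Metabolic and cytoskeletal genes with muscle isoforms moved in the same libraries. Of 44 glycolysis and lactate genes, 5 were higher, namely the phosphofructokinase gene pfkm.L (2.84 ± 0.59), the aldolase copies aldoa.L (2.19 ± 0.52) and aldoa.S (1.92 ± 0.45), gapdh.S (1.65 ± 0.39) and ldha.S (1.28 ± 0.33), with adjusted p from 0.0099 to 0.041 in the same edgeR fit. Without rCSF1 replicates 1, 2 and 6 they stood at -0.30, 0.60, 0.44, 0.20 and 0.18, in that order, and the median of the list was 0.00. None of the 44 was lower, and over all genes 1.08% were higher and 0.152% lower. By unadjusted p under 0.05, 13 of the 44 were upward and 3 downward (7.75% and 5.67% of all genes). Of 21 myofibroblast and smooth muscle markers, 2 were higher, the tropomyosin genes tpm1.L (2.24 ± 0.52) and tpm2.S (2.78 ± 0.68), whose products also belong to striated muscle. Both were below 0 without the 3 libraries (-0.26 and -0.027). No other of the 21 was upward by unadjusted p under 0.05, and none was downward. The smooth muscle actin gene acta2, the usual mark of myofibroblasts, had 100.4, 126 and 171 CPM in rCSF1-treated and 63.4, 95.6 and 111 CPM in rIL34-treated wounds for its L copy, with ranges that overlap, and neither copy passed the test (0.51 ± 0.47 and 0.33 ± 0.47, adjusted p = 0.68 and 0.82). pygb.L, a glycogen phosphorylase gene, kept a log2 fold change of 4.44 without the 3 libraries (6.04 ± 1.35 with all, adjusted p = 0.017), but its S copy did not. pygb.S went from 5.89 ± 1.09 (adjusted p = 0.0057) to 0.54 without them. The call of pygb.L was lost without rCSF1 replicate 6 and without rIL34 replicate 2, 5 or 6.

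Outside muscle, the named genes with the smallest p-values were widely expressed genes that differed by less than 2-fold. eprs1.L (5L:15313040-15365670) encodes the glutamyl-prolyl-tRNA synthetase that charges tRNA for protein synthesis. It had 81.2, 106 and 134 CPM in rCSF1-treated wounds, against 48.4, 57.4 and 72.1 CPM in rIL34-treated wounds and a median of 92.2 CPM in rctrl wounds (0.82 ± 0.14, adjusted p = 0.0034). Every rCSF1 library lay above every rIL34 library, and the fold change was 0.79 without the muscle-rich libraries. Of 71 tested genes for translation initiation factors and proteins that act with them, 7 were higher and none lower (1.08% and 0.152% of all genes were). Among the 7 were the copies of eif3c, a subunit of the factor that brings the small ribosomal subunit to mRNA, and of pabpc1, the poly(A)-binding protein. eif3c.S had 61.9, 85.4 and 107 CPM in rCSF1-treated and 39.98, 49.7 and 57.1 CPM in rIL34-treated wounds (0.75 ± 0.15, adjusted p = 0.0077). pabpc1.S had 359, 516 and 612 CPM in rCSF1-treated and 262, 279 and 383 CPM in rIL34-treated wounds (0.75 ± 0.15, adjusted p = 0.0077), with a small overlap. eif4ebp2.S, a repressor of cap-dependent initiation, was also higher (0.48 ± 0.10, adjusted p = 0.014). The median of these 71 genes was 0.03, with 11 upward and 5 downward by unadjusted p under 0.05 (7.75% and 5.67% of all genes). Of 75 tested genes whose symbol starts with eif, a set formed after values were seen, 5 were higher and none lower (median 0.02).

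Genes of the lysosome recurred among the small rises. Lysosomes are the acidic compartments in which macrophages and other cells break down what they have engulfed. A list of 124 tested genes for lysosomal hydrolases and membrane proteins held 14 that were higher (1.08% of all genes were), with 37 upward and 5 downward by unadjusted p under 0.05 (7.75% and 5.67% of all genes). It does not hold gpr137b.L, a lysosomal membrane protein gene that was lower and is described below. The median log2 fold change of the list was 0.15 with all libraries and 0.13 without rCSF1 replicates 1, 2 and 6. This list, like those for the V-ATPase, the TCA cycle, nuclear import and initiation factors, was written after the highest-ranked genes had been seen, so its counts are a description. gba.L (8L:134516727-134526343), the glucocerebrosidase, had 20.3, 21.3 and 31.9 CPM in rCSF1-treated wounds, against 9.61, 12.99 and 16.6 CPM in rIL34-treated wounds (0.88 ± 0.16, adjusted p = 0.0040). ctsc.S encodes cathepsin C, the protease that activates the granule proteases of neutrophils and mast cells, and had 74.5, 117 and 123 CPM in rCSF1-treated and 47.4, 62.8 and 73.3 CPM in rIL34-treated wounds (0.85 ± 0.16, adjusted p = 0.0073). In both genes the groups did not overlap, and rctrl wounds lay between them with medians of 16.01 CPM for gba.L and 76.2 CPM for ctsc.S. The other examples are the cathepsin B gene ctsb.S (0.98 ± 0.23), the mannosidase gene man2b1.L (0.72 ± 0.15) and lamp1.S, a major protein of the lysosomal membrane (0.56 ± 0.15), with adjusted p of 0.023, 0.0098 and 0.048. Of 38 subunits of the V-ATPase, the proton pump of the lysosome, 3 were higher, the copies of atp6v0c and atp6v1e1.L, and none was lower. atp6v0c.S had 44.98, 60.5 and 68.2 CPM in rCSF1-treated and 29.4, 33.4 and 36.2 CPM in rIL34-treated wounds (0.82 ± 0.19, adjusted p = 0.019).

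Mitochondrial genes of fuel oxidation were also among the small rises. Of 73 genes of the TCA cycle and fatty acid oxidation, 8 were higher and none lower (1.08% and 0.152% of all genes were). Of these 73, 58 had a positive fold change, with a median of 0.23 (0.22 without the muscle-rich libraries). hadha.L, a subunit of the trifunctional enzyme of beta-oxidation, had 25.005, 33.9 and 42.8 CPM in rCSF1-treated and 15.2, 18.3 and 23.9 CPM in rIL34-treated wounds (0.87 ± 0.18, adjusted p = 0.0098). nnt.L, the transhydrogenase that makes mitochondrial NADPH, had 102, 113 and 169.9 CPM in rCSF1-treated and 67.1, 77.98 and 89.4 CPM in rIL34-treated wounds (0.73 ± 0.14, adjusted p = 0.0069), again with no overlap. Of 123 oxidative phosphorylation genes, 3 were higher, sdhb.S (0.83 ± 0.20) and sdhc.S (0.61 ± 0.14) of complex II and atp5f1a.L (0.67 ± 0.17) of the ATP synthase, while the list median was 0.05. Of these, sdhb.S and sdhc.S were already counted among the 8 above. By unadjusted p under 0.05, 10 of the 123 were upward and 2 downward, near the shares of all genes (7.75% and 5.67%). The 13 genes of the mitochondrial genome had a median of 0.22 and none passed the test (none at an unadjusted p under 0.05, and none with DESeq2). gsn.L, which encodes the actin-severing protein gelsolin, was higher with 125, 147 and 164 CPM in rCSF1-treated and 81.5, 93.5 and 120.4 CPM in rIL34-treated wounds (0.61 ± 0.12, adjusted p = 0.0092).

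Of 53 tested cell cycle genes, 2 were higher after rCSF1, plk1.S and mki67.L, and none was lower. In all, 52 had a positive log2 fold change, with a median of 0.47, and 22 of them reached an unadjusted p under 0.05 against 7.75% of all genes. Without rCSF1 replicates 1, 2 and 6 the median was 0.49. plk1.S (9_10S:100466768-100475872), the mitotic polo-like kinase, had 7.55, 9.10 and 11.96 CPM in rCSF1-treated and 2.42, 4.26 and 5.75 CPM in rIL34-treated wounds (1.20 ± 0.27, adjusted p = 0.020). mki67.L, the gene of the proliferation antigen Ki-67, had 43.2, 49.5 and 72.6 CPM in rCSF1-treated and 26.4, 34.4 and 38.4 CPM in rIL34-treated wounds (0.63 ± 0.16, adjusted p = 0.041). In both genes the groups did not overlap. The rctrl medians, 7.42 CPM for plk1.S and 47.7 CPM for mki67.L, were nearer to the rCSF1 ones, and set against rctrl the list median was -0.11 for rCSF1 and -0.55 for rIL34. top2a.L, the DNA topoisomerase of dividing cells, had 70.2, 101 and 141 CPM in rCSF1-treated and 37.9, 57.6 and 71.8 CPM in rIL34-treated wounds and missed the threshold (0.85 ± 0.24, adjusted p = 0.067). h2bc11.S, a histone H2B gene, was higher (1.04 ± 0.27, adjusted p = 0.041), though that call was lost in 10 of the 12 fits with a library left out. Also higher was kpna2.L (1.08 ± 0.24, adjusted p = 0.017), an importin of dividing cells. Of 81 nuclear import and pore genes, 5 were higher and none lower (1.08% and 0.152% of all genes were). The 5 were kpna2.L, the importin copies ipo7.S (0.76 ± 0.16, adjusted p = 0.014) and ipo7.L, and the nucleoporin genes nup133.L and nup205.S.

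**Figure D3:**
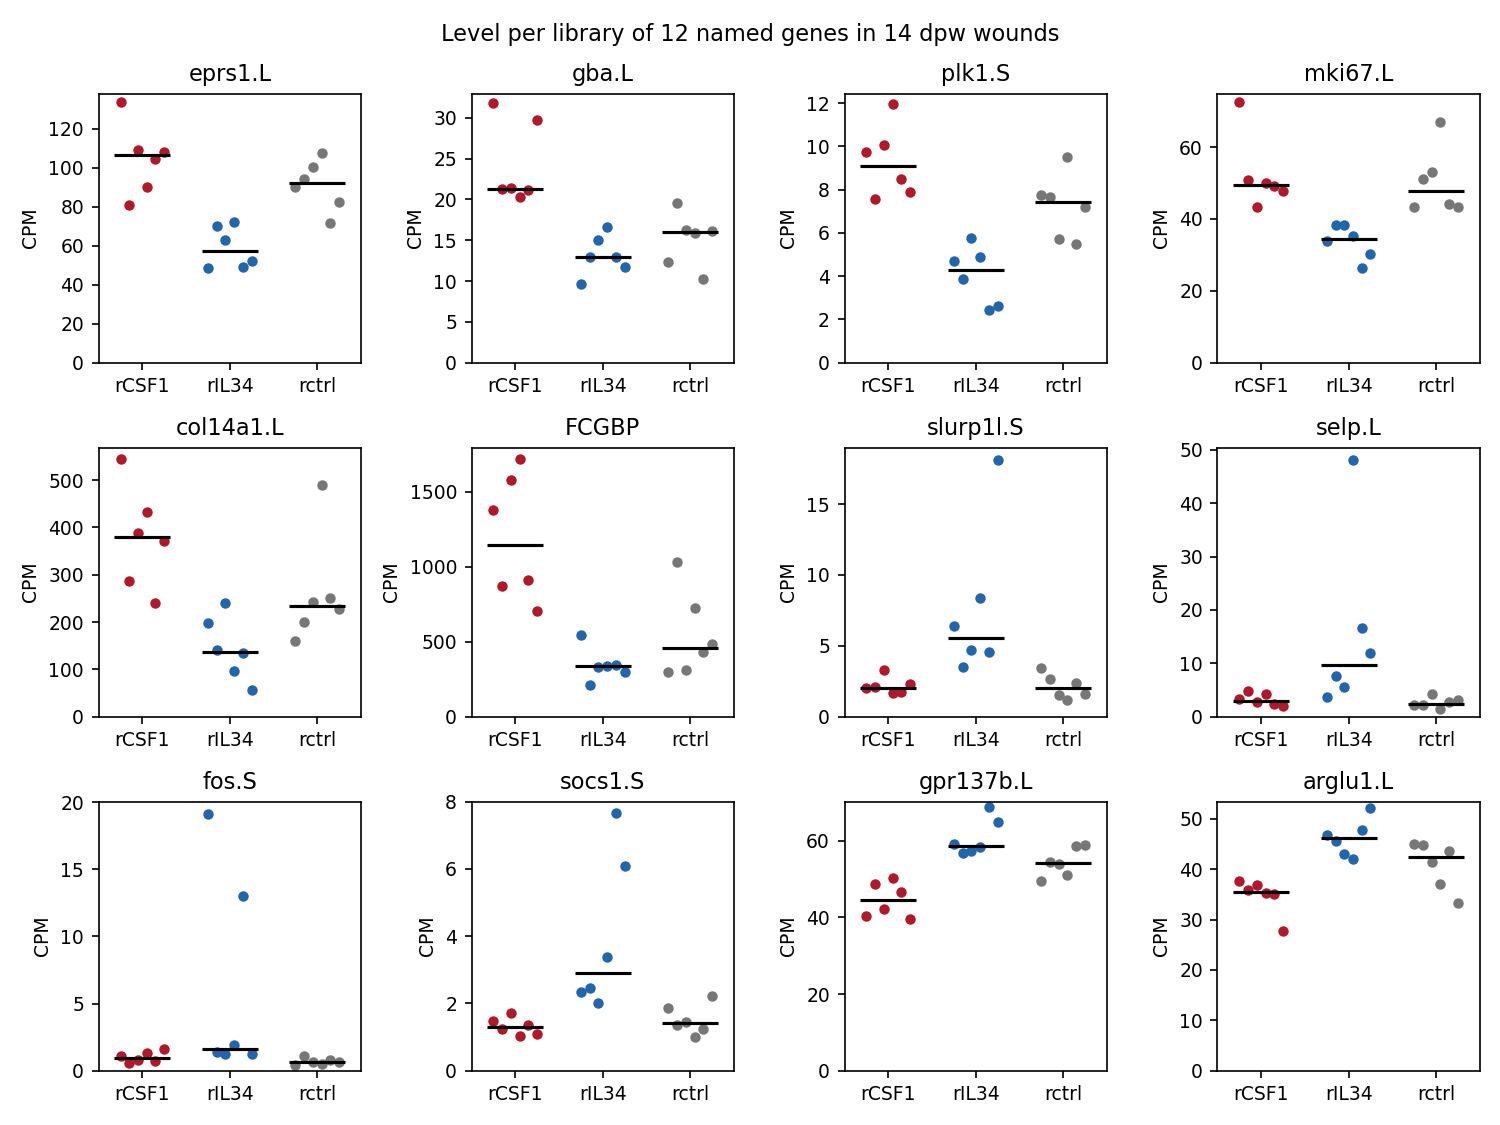
CPM of 12 named genes in each 14 dpw library of rCSF1, rIL34 and rctrl wounds, on linear axes from 0. Points are libraries and bars are medians. In eprs1.L, gba.L, plk1.S, mki67.L, col14a1.L and FCGBP every rCSF1 point lies above every rIL34 point, in slurp1l.S, socs1.S, gpr137b.L and arglu1.L every one lies below, and in selp.L and fos.S the groups overlap, with 1 or 2 rIL34 libraries far above the rest.

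Of 58 fibroblast and collagen matrix genes, 1 was higher after rCSF1 and none lower. In all, 52 had a positive log2 fold change and 21 reached an unadjusted p under 0.05 (7.75% of all genes), with a median of 0.49. That median was 0.21 without rCSF1 replicates 1, 2 and 6, with 5 genes upward by unadjusted p under 0.05, and it was 0.24 with the muscle share as a covariate. The gene that passed was col14a1.L (6L:149300712-149407551), a collagen that coats fibrils, with 240.4, 379 and 544 CPM in rCSF1-treated and 55.8, 137 and 239.5 CPM in rIL34-treated wounds (1.39 ± 0.34, adjusted p = 0.028). Its fold change without the 3 libraries was 1.30. col1a2.L (6L:32779143-32817005), the alpha 2 chain of type I collagen, had 2895, 4095 and 5805 CPM in rCSF1-treated and 1421, 2059.8 and 2624 CPM in rIL34-treated wounds, with no overlap, but did not pass (1.000 ± 0.34, adjusted p = 0.15). Its S copy gave 1.05 ± 0.42 (adjusted p = 0.24), with rctrl medians of 2496 and 1349.5 CPM for the L and S copies between those of the cytokine groups.

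The other chains of type I and type III collagen had the same direction without passing the test. col1a1.L had 3870.1, 5211 and 8009.7 CPM in rCSF1-treated and 1785, 3227 and 4461 CPM in rIL34-treated wounds (0.82 ± 0.39, adjusted p = 0.36), and col1a1.S gave 0.88 ± 0.38 (adjusted p = 0.30). col3a1.S had 428, 522 and 988 CPM in rCSF1-treated and 162, 337 and 491 CPM in rIL34-treated wounds (0.85 ± 0.38, adjusted p = 0.31), and col3a1.L gave 0.52 ± 0.31 (adjusted p = 0.47). The log2 ratio of summed type I to type III collagen CPM was 3.51 ± 0.32 in rCSF1-treated and 3.24 ± 0.52 in rIL34-treated wounds (SD, n = 6 each), a difference of 0.27 that did not pass (exact two-sided permutation, p = 0.36).

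Single genes of the epidermis, its glands and innate defence were higher, while the other members of their lists did not pass. COL17A1, the collagen of the hemidesmosomes that anchor basal keratinocytes, had 156, 298 and 375 CPM in rCSF1-treated and 71.03, 111 and 157 CPM in rIL34-treated wounds (1.32 ± 0.30, adjusted p = 0.017), with a slight overlap. It was the only one of the 50 epidermal markers to pass, and their median was 0.04. FCGBP, a mucus protein of secretory cells, had 707, 1145 and 1721 CPM in rCSF1-treated and 214, 336 and 546 CPM in rIL34-treated wounds (1.79 ± 0.41, adjusted p = 0.021), with no overlap, and stood at 2.03 without the muscle-rich libraries. The other member of the 33 skin gland and ionocyte genes to pass was otog.L, an otogelin gene (1.65 ± 0.41, adjusted p = 0.036), which rested on rCSF1 replicate 6 and gave 0.45 without the 3 libraries. fcn1.L, a ficolin that binds microbial sugars and starts the lectin pathway of complement, had 10.5, 15.3 and 29.4 CPM in rCSF1-treated and 1.77, 3.74 and 8.03 CPM in rIL34-treated wounds (1.87 ± 0.48, adjusted p = 0.042) and was the 1 of 30 complement genes to pass. Of those 30, 7 were upward and 2 downward by unadjusted p under 0.05, against 7.75% and 5.67% of all genes. Their median was 0.13, and -0.42 without the muscle-rich libraries. The gland and ionocyte list had a median of -0.06, with 4 upward and 1 downward. Each of these 4 calls was lost without rCSF1 replicate 6 and without rIL34 replicate 2, 5 or 6, that of otog.L also without rIL34 replicate 1 or 4, and that of fcn1.L also without rCSF1 replicate 1 or 3 or rIL34 replicate 3.

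Among the genes that were lower after rCSF1 were a pair of selectin genes, while 0 of 37 endothelial markers passed with edgeR or DESeq2. By unadjusted p under 0.05, 2 of these markers were downward (5.67% of all genes), and their median was -0.12. selp.L (4L:116340871-116351204) encodes P-selectin, which endothelium and platelets display to catch rolling leukocytes, and it had 2.03, 3.01 and 4.82 CPM in rCSF1-treated wounds, against 3.70, 9.76 and 48.1 CPM in rIL34-treated wounds and a median of 2.44 CPM in rctrl wounds (-2.26 ± 0.47, adjusted p = 0.0098). Sele, 1 of 2 table entries of that name and the gene of the endothelial E-selectin, had 0.583, 1.07 and 3.64 CPM in rCSF1-treated and 1.28, 4.85 and 25.6 CPM in rIL34-treated wounds (-2.44 ± 0.58, adjusted p = 0.027). In both genes rIL34 replicate 4 was far above the other rIL34 libraries, and without it neither was called. The call of selp.L was also lost without rCSF1 replicate 6, and that of Sele without rCSF1 replicate 1, 3 or 6 or rIL34 replicate 5 or 6. slurp1l.S (4S:107452647-107457695), which encodes a small secreted protein of the Ly6 family, had 1.65, 2.06 and 3.29 CPM in rCSF1-treated and 3.52, 5.55 and 18.1 CPM in rIL34-treated wounds (-1.80 ± 0.36, adjusted p = 0.0090), with no overlap.

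Immediate early and cytokine-response genes followed. The copies of fos, a transcription factor gene induced within minutes of a stimulus, were lower, with 0.552, 0.935 and 1.64 CPM in rCSF1-treated and 1.27, 1.64 and 19.1 CPM in rIL34-treated wounds for fos.S (-2.64 ± 0.55, adjusted p = 0.0098) and a log2 fold change of -2.46 ± 0.56 for fos.L (adjusted p = 0.018). Here rIL34 replicates 1 and 5 carried the difference, at 19.1 and 13.0 CPM for fos.S, while the other 4 rIL34 libraries were at 1.27 to 1.90 CPM. Of the 46 genes on the list of immediate early and heat shock genes, these 2 were called, and the median was 0.00. DESeq2 called 3 of the 46 lower and 1 higher, while limma voom called none lower and 1 higher. By unadjusted p under 0.05, 8 were upward and 5 downward (7.75% and 5.67% of all genes). Heat shock genes that the list does not hold were higher, among them the chaperone genes hspa1a.S (1.79 ± 0.38, adjusted p = 0.011, 0.29 without the muscle-rich libraries) and hsp90ab1.S (0.79 ± 0.19, adjusted p = 0.030, 0.61 without them). Of 64 inflammatory response genes, 3 were lower, Sele, socs1.S and cxcl9.S, and none was higher (0.152% and 1.08% of all genes were). DESeq2 called 5 lower and none higher, while limma voom called none lower and 1 higher, so these calls depended on the method. In all, 44 had a negative fold change, and the median was -0.22 (-0.28 without the muscle-rich libraries). By unadjusted p under 0.05, 14 were downward and 1 upward (5.67% and 7.75% of all genes). socs1.S, an inhibitor that cytokine receptors induce against themselves, had 1.04, 1.29 and 1.72 CPM in rCSF1-treated and 2.02, 2.91 and 7.67 CPM in rIL34-treated wounds (-1.59 ± 0.38, adjusted p = 0.028), with no overlap. cxcl9.S, a chemokine gene induced by interferon gamma, had 0.460, 0.984 and 1.92 CPM in rCSF1-treated and 1.07, 2.56 and 27.1 CPM in rIL34-treated wounds (-2.69 ± 0.69, adjusted p = 0.040), and rIL34 replicate 5 was the high library. Its call was lost in 9 of the 12 fits with a library left out, and none of the 53 interferon response genes was called (1 upward and 1 downward by unadjusted p under 0.05, and 1 lower with DESeq2).

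Other lower genes differed by smaller amounts. gpr137b.L, the gene of a lysosomal membrane protein, had 39.6, 44.5 and 50.3 CPM in rCSF1-treated and 56.95, 58.8 and 68.8 CPM in rIL34-treated wounds (-0.45 ± 0.10, adjusted p = 0.017). mdm4.S, an inhibitor of p53, had 78.6, 96.3 and 117 CPM in rCSF1-treated and 118, 138 and 147 CPM in rIL34-treated wounds (-0.45 ± 0.10, adjusted p = 0.023). Both copies of arglu1, a regulator of splicing, fell on the same side, at -0.41 ± 0.10 for arglu1.S and -0.41 ± 0.10 for arglu1.L (adjusted p = 0.027 and 0.027), and in each of these 4 genes every rCSF1 library was below every rIL34 library. emc10.L, of the membrane protein insertion complex of the endoplasmic reticulum, and TESPA1, 1 of 2 table entries of that name and a gene of T cell receptor signalling, gave -1.20 ± 0.28 and -0.85 ± 0.22 (adjusted p = 0.026 and 0.040), with overlap. Ribosomal protein genes leaned the same way without a call. Of 131 tested, 124 had a negative fold change, with a median of -0.28 that was also -0.28 without the muscle-rich libraries. In 15 of them every rCSF1 library was below every rIL34 library, as in 0.95% of all genes. None passed (11 were lower at an unadjusted p under 0.05, against 5.67% of all genes, and none with DESeq2), and set against rctrl the median was 0.03 for rCSF1 and 0.31 for rIL34. The share of ribosomal RNA left after depletion moved the other way, at 2.72 ± 0.540% of counts in rCSF1-treated and 1.86 ± 0.222% in rIL34-treated wounds (SD, n = 6 each, exact two-sided permutation p = 0.011, adjusted p = 0.043). Its part in these results was not tested.

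No immune cell marker on the lists passed the edgeR test. Of 37 macrophage markers, 9 were upward by unadjusted p under 0.05 (7.75% of all genes) and none passed with edgeR (2 with DESeq2), with a median of 0.16 that was 0.04 without the muscle-rich libraries. MARCO, a scavenger receptor of macrophages, had 4.54, 8.78 and 14.8 CPM in rCSF1-treated and 0.996, 2.56 and 3.82 CPM in rIL34-treated wounds, did not overlap and just missed the threshold (1.95 ± 0.53, adjusted p = 0.058). None of 29 neutrophil markers (median -0.12), 36 T and NK cell markers (median -0.37) and 24 B and plasma cell markers (median -0.57) was called by edgeR or DESeq2, while 3, 2 and 10 of them were downward by unadjusted p under 0.05, against 5.67% of all genes. In the same order, 1, 0 and 1 were upward, against 7.75% of all genes. With limma voom, 1 macrophage marker was higher, and of the B and plasma cell markers 1 was higher and 2 were lower. PAX5, the transcription factor of B cell identity, had 1.04, 1.69 and 4.88 CPM in rCSF1-treated and 2.40, 5.73 and 6.97 CPM in rIL34-treated wounds (-1.17 ± 0.37, adjusted p = 0.12). CCL19, a chemokine that draws lymphocytes and dendritic cells, had 2.46, 3.97 and 32.1 CPM in rCSF1-treated and 4.54, 21.9 and 131 CPM in rIL34-treated wounds (-2.15 ± 0.62, adjusted p = 0.082), and replicate 4 was the highest library in both groups. The hemoglobin share, a sign of blood, was 0.0231 ± 0.0103% in rCSF1-treated and 0.0527 ± 0.0474% in rIL34-treated wounds (SD, n = 6 each, exact two-sided permutation p = 0.052, adjusted p = 0.092).

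The genes of the cytokine axis itself showed no called difference. The host transcript csf1.S (2S:61440375-61452789), to which the injected protein adds no RNA, had 11.1, 12.7 and 16.6 CPM in rCSF1-treated and 13.8, 17.1 and 26.3 CPM in rIL34-treated wounds (-0.47 ± 0.16, adjusted p = 0.15). The receptor gene CSF1R had 35.8, 44.7 and 68.9 CPM in rCSF1-treated and 32.8, 53.3 and 101 CPM in rIL34-treated wounds (-0.22 ± 0.31, adjusted p = 0.81). il34 was low in both groups, with medians of 1.80 CPM in rCSF1-treated and 1.92 CPM in rIL34-treated wounds for il34.L and 3.65 and 4.72 CPM in the same order for il34.S, and log2 fold changes of 0.11 ± 0.31 and -0.17 ± 0.29. None of the 15 genes of the CSF1 and IL34 axis passed with edgeR or DESeq2, and 1 was downward by unadjusted p under 0.05. Among genes of neutrophil biology, csf3r.L, the G-CSF receptor, had 25.4, 37.9 and 45.6 CPM in rCSF1-treated and 12.4, 29.4 and 35.2 CPM in rIL34-treated wounds (0.43 ± 0.22, adjusted p = 0.39), and mpo.L, the myeloperoxidase, gave 0.42 ± 0.40 (adjusted p = 0.69). The neutrophil chemokine gene cxcl8 gave -0.62 ± 0.58 for cxcl8.L and -0.23 ± 0.49 for cxcl8.S (adjusted p = 0.68 and 0.88), and the B cell chemokine gene cxcl13.L gave -1.001 ± 0.49 (adjusted p = 0.37).

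Matrix metalloproteinases, which cut collagen and other matrix proteins, varied widely between the libraries of a group. None of 32 MMP and TIMP genes was called by edgeR and 1 was lower with DESeq2. By unadjusted p under 0.05, 2 were upward and 6 downward (7.75% and 5.67% of all genes). The collagenase gene mmp1.S had 0.723, 2.58 and 22.4 CPM in rCSF1-treated and 1.58, 11.4 and 226 CPM in rIL34-treated wounds (-2.91 ± 1.04, adjusted p = 0.18), and mmp1.L had 0, 0.305 and 1.04 and 0.0895, 0.498 and 27.3 CPM in the same groups (-3.94 ± 1.24, adjusted p = 0.11). Replicate 4 of rIL34 was the highest of its group in mmp1.L, mmp1.S and mmp13.S, at 27.3, 226 and 147 CPM. mmp7.L, matrilysin, stood the other way, with 49.7, 67.1 and 105 CPM in rCSF1-treated and 16.8, 34.4 and 64.2 CPM in rIL34-treated wounds (0.96 ± 0.39, adjusted p = 0.25). mmp13.S gave -0.33 ± 0.68 (adjusted p = 0.88). Clock genes are known to follow the hour of sampling, and 0 of 32 passed. At an unadjusted p under 0.05, 4 were lower (5.67% of all genes), and 1 was lower with DESeq2. NFIL3, a clock-output and immune transcription factor on that list, had 0.347, 0.921 and 1.97 CPM in rCSF1-treated and 0.739, 2.72 and 27.8 CPM in rIL34-treated wounds (-2.86 ± 0.82, adjusted p = 0.076).

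The difference between the cytokines at 14 dpw was much narrower than at 7 dpw and, for the genes called at 14 dpw, mostly of the opposite sign. At 7 dpw, in 12 other libraries, 17.4% of genes were called. Of these, 2638 genes (9.35%) stood higher after rCSF1 and 2272 (8.05%) stood lower. Replicates 2 and 5 of rCSF1 stood apart from the other 7 dpw libraries on the second principal component, and without both of them 1754 genes (6.21%) were called at 7 dpw, an alternative chosen after seeing the data. Of the genes called at 14 dpw, 60 were also called at 7 dpw, and in all 60 the sign was opposite (51 of 51 without those 2 libraries). The test of the change itself, the 14 dpw difference less the 7 dpw difference, called 3428 genes (12.1%), 1717 upward (6.08%) and 1711 downward (6.06%). For genes chosen by their 14 dpw difference, which is a term of the change, values of the change are a description. Of the 126 small rises, 114 had a negative fold change at 7 dpw and 50 were called lower there (119 and 47 without rCSF1 replicates 2 and 5), with a median of -0.37. Of the 43 lower genes, 33 had a positive fold change at 7 dpw and 7 were called higher there (31 and 4 without them).

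Transcripts of cell cycle genes turned in this way. At 7 dpw, 43 of the 53 cell cycle genes were lower after rCSF1, with a median of -1.08, against a median of 0.47 at 14 dpw, and 43 were called for the change. Without rCSF1 replicates 2 and 5 of 7 dpw, 26 were lower, with a median of -0.77, and 39 were called for the change. top2a.L gave -1.40 ± 0.24 at 7 dpw and 0.85 ± 0.24 at 14 dpw, a change of 2.25 ± 0.34 (adjusted p = 1.8e-04). h2bc11.S gave -1.82 ± 0.27 at 7 dpw and 1.04 ± 0.27 at 14 dpw, a change of 2.85 ± 0.38 (adjusted p = 8.8e-05). Collagen and matrix genes had a median of -0.69 at 7 dpw, with 16 of 58 lower (-0.34 and 3 without those libraries), and 18 were called for the upward change (14 without them), of which col1a2.L gave 1.91 ± 0.48 (adjusted p = 0.0088). Inflammatory response genes went the opposite way, with a median of 0.48 at 7 dpw and 19 of 64 higher, against -0.22 at 14 dpw, and 21 were called for the downward change. Without rCSF1 replicates 2 and 5 of 7 dpw the median at 7 dpw was 0.33, 3 of 64 were higher and 13 were called for the downward change. In that setting, 814 of all 28225 genes were higher and 940 lower at 7 dpw. The change was called for 1899 of all genes upward and 1152 downward. cxcl8.L gave 3.64 ± 0.62 at 7 dpw and -0.62 ± 0.58 at 14 dpw, a change of -4.26 ± 0.83 (adjusted p = 0.0016), and mmp1.L gave 5.32 ± 1.21 at 7 dpw and -3.94 ± 1.24 at 14 dpw, a change of -9.26 ± 1.72 (adjusted p = 0.0011). Without those 2 libraries, the 7 dpw fold change was 1.60 ± 0.44 for cxcl8.L (adjusted p = 0.026) and 2.30 ± 1.06 for mmp1.L (adjusted p = 0.19). Ribosomal protein genes had a median of -0.01 at 7 dpw (0.20 without them). Among single genes, eprs1.L gave -0.58 ± 0.13 at 7 dpw (adjusted p = 0.0041) and gpr137b.L gave 0.42 ± 0.10 (adjusted p = 0.0048), each called with opposite signs at the 2 times. fos did not follow this pattern, with negative fold changes at both times and no called change. With rCSF1 replicates 1, 2 and 6 of 14 dpw left out, 1366 genes were called for the change.

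**Figure D4:**
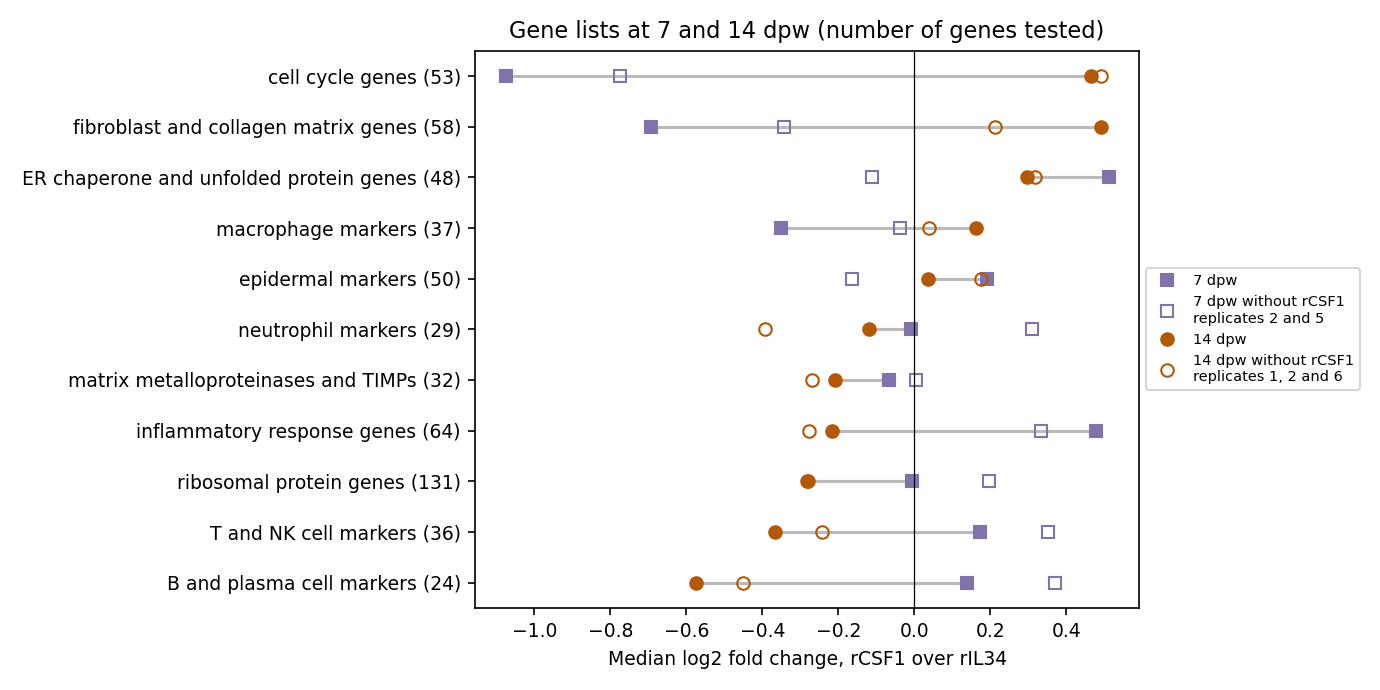
Median log2 fold change, rCSF1 over rIL34, of 11 gene lists at 7 dpw (squares), at 14 dpw (filled circles) and at 14 dpw without rCSF1 replicates 1, 2 and 6 (open circles), with 7 dpw also shown without rCSF1 replicates 2 and 5 (open squares) and the number of genes tested in parentheses. The cell cycle list lies at -1.08 at 7 dpw and 0.47 at 14 dpw, and the inflammatory list at 0.48 at 7 dpw and -0.22 at 14 dpw, while the ER chaperone list lies at 0.51 at 7 dpw with all libraries and at -0.11 without those 2.

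**Figure D5:**
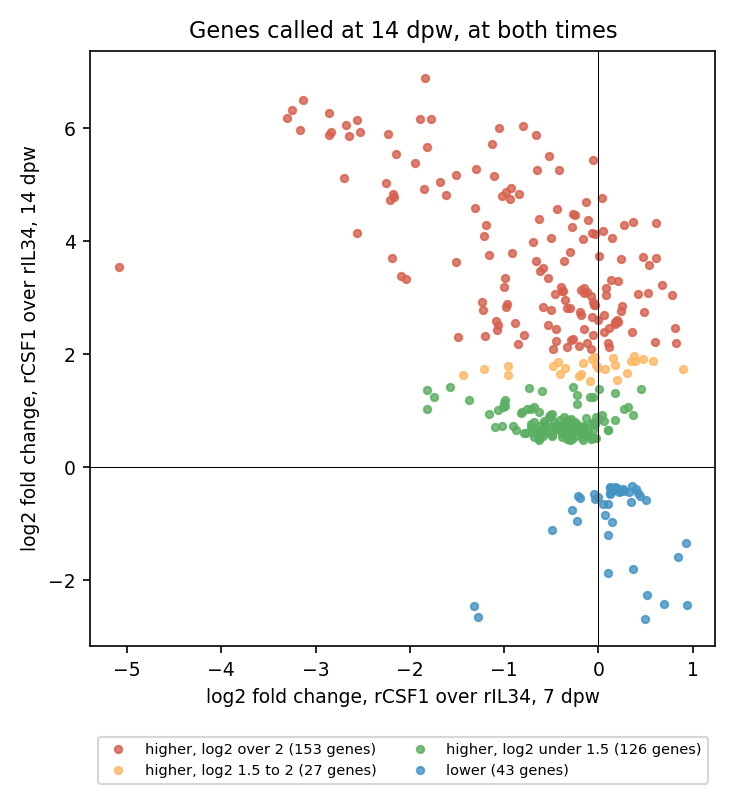
Log2 fold change, rCSF1 over rIL34, at 7 dpw (x axis) and at 14 dpw (y axis) for the 349 genes called at 14 dpw, each a point coloured by the size and direction of its 14 dpw change. Of the 126 rises under 1.5, 114 lie left of 0 on the x axis, and of the 43 lower genes, 33 lie right of it.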

How the data were processed

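Bulk RNA-seq was made from skin wounds of X. laevis, with ribosomal RNA depletion and strand-specific paired-end libraries. The authors trimmed reads with fastp, aligned them with minimap2 2.29, sorted them with SAMtools 1.16.1 and counted read pairs per gene with featureCounts 2.1.1 on RefSeq Xenopus_laevis_v10.1, and the deposited values are these raw counts. No strand option of the counting is given in the sources used here, so a gene and its antisense partner cannot be told apart. Values of genes with a near-identical copy are uncertain, since the counting could split or drop their reads.

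Of 42675 table entries, 1 without a name and 417 named uc, NA or na (0.628 to 2.08% of counts) were left out. Genes at 0.5 CPM or more in at least 10 libraries (28225) were fitted with edgeR 4.0.16 (R 4.3.3), TMM scaling and quasi-likelihood tests over all 36 libraries in 6 groups, since the groups then share 1 estimate of the spread, with Benjamini-Hochberg adjustment across all 28225 genes and a call at an adjusted p under 0.05. The change between times was the interaction contrast in the same fit. Shares of counts were compared by exact permutation of 6 against 6 libraries (scipy 1.17.1), whose smallest p is 0.0022. In a test on simulated data for the 14 dpw comparison with 28225 genes, 48% of genes changed by a log2 of 1 and 84% of those changed by 2 were recovered, and 5 unchanged genes were called. The simulated libraries shared a common mean profile and held no outlying library, unlike these data, so the rates describe that setting only. Alternatives were DESeq2 1.42.0, limma 3.58.1 voom, RLE scaling, other filters, other sets of libraries, a replicate block, a muscle covariate, summed L and S copies and each library left out.

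The members and gene lists were chosen with earlier results of these data known. Named genes were taken from the 10 largest rises and falls and the 10 lowest p-values in each direction at 14 dpw (mean of at least 1 CPM, no automatic symbol), up to 4 genes of lowest p per list, 5 per sign for the change between times, and the cytokine axis and the genes the study names. Named after their values were seen were ckm.L, pygb.S, ldha.S, pabpc1.S, eif3c.S, ctsc.S, ctsb.S, man2b1.L, lamp1.S, atp6v0c.S, atp6v1e1.L, hadha.L, nnt.L, kpna2.L, ipo7.S, ipo7.L, nup133.L, nup205.S, arglu1.S, arglu1.L, hspa1a.S and hsp90ab1.S.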

Additional observations from a re-analysis of the deposited data

Results flagged for a closer look

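Within the 6 libraries of a group at 14 dpw, a single library lay apart from the other 5 by its gap to the nearest of them (Dixon's test) in 39 of 162 sets of values looked at, or 24.1%. The cutoff is passed by about 1 in 20 sets of independent, normally distributed values. These sets hold CPM and shares on a linear scale, and many share an outlying library, so 24.1% is a description and cannot be set against that rate. The skeletal muscle share stood apart at 4.42% in rCSF1 replicate 6 and 0.125% in rIL34 replicate 1, and the hemoglobin share at 0.148% in rIL34 replicate 2. Replicate 6 of rCSF1 stood apart with 166 CPM for myh6.S, 286 CPM for acta1.L, 4025 CPM for neb.S, 3325 CPM for ckm.L, 283 CPM for pygb.L, 97.3 CPM for pfkm.L, 1689.6 CPM for tpm1.L, 2524 CPM for tpm2.S, 9.29 CPM for otog.L, 27.7 CPM for arglu1.L, 49.99 CPM for ldha.S, 664 CPM for gapdh.S, 449.8 CPM for aldoa.L and 359 CPM for aldoa.S. Of these, only arglu1.L was a low value. Replicate 1 of rIL34, the library of its group with the highest muscle share, stood apart with 57.6 CPM for neb.S, 116 CPM for ckm.L and 3.82 CPM for pygb.L. Replicate 4 stood apart in both groups, in rCSF1 with 3.64 CPM for Sele, 1.91 CPM for emc10.L, 32.1 CPM for CCL19 and 22.4 CPM for mmp1.S, where emc10.L was the low value, and in rIL34 with 48.1 CPM for selp.L, 25.6 CPM for Sele, 131 CPM for CCL19, 27.3 CPM for mmp1.L, 226 CPM for mmp1.S, 147 CPM for mmp13.S, 148 CPM for ctsb.S, 90.6 CPM for atp5f1a.L, 59.6 CPM for aldoa.L and 51.9 CPM for aldoa.S. CCL19, Sele and mmp1.S thus had their highest values in the replicate 4 libraries of both groups, whose shared number is only a name in the labels. The remaining cases were 72.6 CPM for mki67.L in rCSF1 replicate 1, 29.4 CPM for fcn1.L in rCSF1 replicate 3, 27.1 CPM for cxcl9.S and 8.50 CPM for sdhb.S in rIL34 replicate 5 and 18.1 CPM for slurp1l.S in rIL34 replicate 6.

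The difference between rCSF1 and rIL34 also changed between 7 and 14 dpw for 57 of 77 named genes looked at, by the edgeR test of the change itself (log2, the 14 dpw difference less the 7 dpw difference). The change was upward for muscle and glycolysis genes, at 8.74 for myh6.S, 8.47 for acta1.L, 8.12 for neb.S, 5.68 for ckm.L, 6.83 for pygb.L, 3.43 for pfkm.L, 2.68 for tpm1.L, 4.01 for tpm2.S, 1.51 for ldha.S and 2.05 for gapdh.S. It was upward too for genes of cell division and nuclear import, at 2.85 for h2bc11.S, 2.57 for plk1.S, 1.17 for mki67.L, 2.25 for top2a.L, 2.07 for kpna2.L and 0.99 for ipo7.S. Among genes of translation, the lysosome, mitochondria and the cytoskeleton, it was 1.40 for eprs1.L, 1.14 for pabpc1.S, 0.97 for eif3c.S, 1.11 for eif4ebp2.S, 1.41 for gba.L, 1.14 for ctsc.S, 1.62 for ctsb.S, 0.87 for man2b1.L, 0.67 for lamp1.S, 1.004 for hadha.L, 1.35 for nnt.L, 0.99 for atp5f1a.L, 0.97 for sdhc.S and 1.38 for gsn.L. Among genes of matrix, myofibroblasts, secretion and innate defence, it was 1.38 for col14a1.L, 1.91 for col1a2.L, 1.76 for col1a1.L, 1.64 for col1a1.S, 2.19 for acta2.L, 2.002 for acta2.S, 2.75 for FCGBP, 1.83 for otog.L, 2.30 for fcn1.L and 2.44 for MARCO. It was downward for genes of inflammation, vessel wall and matrix breakdown, at -9.26 for mmp1.L, -6.78 for mmp1.S, -4.26 for cxcl8.L, -3.31 for cxcl8.S, -3.80 for CCL19, -3.38 for Sele, -3.18 for cxcl9.S, -2.78 for selp.L, -2.43 for socs1.S and -2.17 for slurp1l.S. Among other genes, it was also downward, at -1.90 for PAX5, -1.30 for emc10.L, -0.92 for TESPA1, -0.87 for gpr137b.L, -0.77 for mdm4.S, -0.68 for arglu1.L and -0.56 for arglu1.S. Most of these genes were chosen by their 14 dpw difference, which is a term of the change. Without rCSF1 replicates 2 and 5 of 7 dpw, the change was no longer called for col14a1.L, col1a1.L, col1a1.S, acta2.L, acta2.S, fcn1.L, otog.L and TESPA1.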

How the results depend on the processing

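Of the alternatives to the 349 calls at 14 dpw, RLE scaling (366), no filter (473), a filter of 5 CPM (245) and summed L and S copies (346) stayed within 1.5 times. DESeq2 gave 768 calls, limma voom with quality weights 797, the fit to the 18 libraries of 14 dpw 677, and the fit to the 2 groups alone 2. There were 0 calls without rCSF1 replicates 1, 2 and 6 (lowest adjusted p = 0.14) and 0 with the muscle share as a covariate, and 67 without rCSF1 replicate 6 and rIL34 replicate 1, an alternative chosen after seeing the data. Leaving out 1 library at a time gave 44 to 480 calls. The labels do not say whether libraries with the same replicate number share anything. Deviations of same-numbered libraries correlated at -0.15 to 0.15, and 1 of 6 rCSF1 libraries correlated best with its own number. These values cannot show whether an animal, batch or day was shared. A fit with the replicate number as a block gave 163 calls. For the change between times, 3428 calls became 1366 without rCSF1 replicates 1, 2 and 6 and 2679 to 4519 with 1 library out, 3097 with the block and 3051 without rCSF1 replicates 2 and 5 of 7 dpw. Fits with libraries left out have fewer libraries per group, and beyond that the cause was not tested.

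The difference in muscle share was -0.0059 percentage points without rCSF1 replicates 1, 2 and 6 and 0.199 to 1.08 with 1 library out. That in ribosomal RNA share was 0.858 with p = 0.062 by exact permutation within replicate numbers as a block, and 0.761 to 1.03 with 1 library out. The hemoglobin difference was -0.0359 to -0.0105 and that in the collagen ratio 0.08 to 0.38 with 1 library out. Of the 349 called genes, 67 reversed their sign without rCSF1 replicates 1, 2 and 6, all of them rises over 2 on the log2 scale. Since those libraries were chosen by their muscle share, this count is a description. Among the named genes these were ckm.L (-0.81), pfkm.L (-0.30), tpm1.L (-0.26) and tpm2.S (-0.027), and with the muscle covariate the signs of pfkm.L (-0.28), tpm1.L (-0.22) and tpm2.S (-0.32) reversed. With 1 library left out, 7 of the 51 called genes followed in this way kept the call in all 12 fits. In the simulated 14 dpw comparison of 28225 genes, 48% of changes of a log2 of 1 were recovered, so a gene not called may still differ by that much. That simulation held no outlying library, and its rate need not hold for these data.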

Other observations

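Genes of other lists leaned to one side by small amounts. Of 48 chaperone and unfolded protein genes of the endoplasmic reticulum, which fold secreted proteins, 44 had a positive log2 fold change of rCSF1 over rIL34 at 14 dpw, with a median of 0.30 (0.32 without rCSF1 replicates 1, 2 and 6), and 10 were upward by unadjusted p under 0.05 (7.75% of all genes), while edgeR and DESeq2 called none and limma voom called 7 higher. Their median was 0.51 at 7 dpw, with 11 higher and 1 lower, and -0.11, with 1 higher and 2 lower, without rCSF1 replicates 2 and 5 of 7 dpw. Of 45 cholesterol synthesis and uptake genes, 35 had a positive fold change at 14 dpw, with a median of 0.15. Of 56 keratin genes, the structural proteins of the epidermis, 21 were lower and 3 higher after rCSF1 at 7 dpw (median -0.74, and 5 lower and 1 higher with a median of -0.54 without those 2 libraries), against none called by edgeR at 14 dpw (median 0.14, 3 upward and 1 downward by unadjusted p under 0.05, and 1 higher with DESeq2), and the change itself was called for 13 upward and 2 downward (10 and 1 without them). Over all genes, 9.35% were higher and 8.05% lower at 7 dpw, and the change was called for 6.08% upward and 6.06% downward. Without those 2 libraries, 814 of all 28225 genes were higher and 940 lower at 7 dpw. The change was then called for 1899 upward and 1152 downward.

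Set against rctrl wounds of 14 dpw, a comparison that shares its control libraries between the cytokines, rIL34 over rctrl gave log2 fold changes of 2.56 for selp.L, 3.15 for Sele, 3.20 for fos.S, 4.10 for CCL19 and 1.83 for slurp1l.S (adjusted p = 0.012 to 0.036, edgeR). Replicate 4 of rIL34 stood far above its group for selp.L (48.1 CPM), Sele (25.6 CPM) and CCL19 (131 CPM), and replicate 6 for slurp1l.S (18.1 CPM). For fos.S the high rIL34 libraries were those described above. How these values against rctrl depend on single libraries was not tested. The genes of this paragraph were named by comparisons that hold the same rIL34 libraries. Their values against rctrl are therefore a description and no separate test. For eprs1.L, rCSF1 over rctrl gave 0.20 (adjusted p = 0.63) and rIL34 over rctrl gave -0.62 (adjusted p = 0.078).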
